A study of Homo sapiens with 8 samples.

Results

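The phagocyte NADPH oxidase is the enzyme with which neutrophils, monocytes and macrophages make superoxide. The genes described here encode 5 of its parts and were chosen by name: CYBB, CYBA, NCF1, NCF4 and RAC2. All 5 were found by symbol among the 57992 genes of the deposited count table, and all 5 passed the filter on low counts, which left 18314 genes. NCF1 and NCF4 passed it through their reads in U937, since KG1A had almost none. The study sequenced mRNA of 2 human acute myeloid leukaemia lines, each given dG, a compound named only by that abbreviation in the labels, at 10 mM, or the vehicle PBS. U937 is a monoblast-like line, and KG1A is an immature line that carries the stem cell antigen CD34. The groups were U937 in dG, U937 in PBS, KG1A in dG and KG1A in PBS, with 2 libraries each. The medium of all groups was RPMI, and its serum was dialyzed. The labels give no treatment time and no name of a clone, nor do they state that replicates came from separate cultures. All p-values therefore rest on the spread between these libraries alone, which may be technical.

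In a resting phagocyte the oxidase is taken apart. Its catalytic core is a flavocytochrome in the membrane, made of gp91phox (from CYBB), which carries the electrons, and p22phox (from CYBA), which stabilises it. The organiser p47phox (from NCF1) and the adaptor p40phox (from NCF4) wait in the cytosol with the other soluble parts. On stimulation p47phox is phosphorylated and docks on p22phox, p40phox binds phosphatidylinositol 3-phosphate on phagosomes, and the small GTPase RAC2, held until then by a GDP dissociation inhibitor, joins the complex in its GTP form. Inherited loss of CYBB, CYBA, NCF1 or NCF4 causes chronic granulomatous disease or related immune defects. Maturing myeloid cells gain oxidase activity, and the ETS factor PU.1 and factors of the IRF family are known to act on the CYBB promoter.

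The genes lie apart in the genome (GRCh38, from the deposited table). CYBB (ENSG00000165168) is on the plus strand of chromosome X, from 37780011 to 37813461. CYBA (ENSG00000051523) is on the minus strand of chromosome 16, from 88643283 to 88651152, and NCF1 (ENSG00000158517) on the plus strand of chromosome 7, from 74773962 to 74789315. NCF4 (ENSG00000100365) and RAC2 (ENSG00000128340) are both on chromosome 22, NCF4 on the plus strand from 36860988 to 36878015 and RAC2 on the minus strand from 37225261 to 37244448.

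RefSeq promoter windows of 300 bases (GRCh38.p14, around each RefSeq gene start) were available for 3 of the 5 genes. These RefSeq starts lie downstream of the deposited gene starts given above. They are shown as a description, chosen with the dG results known. No link between their letters and the dG response was tested. Both strands were searched for GAGGAA, a core bound by PU.1, and for the ETS-IRF composite element. Capitals mark the matches, which here all lie on the opposite strand, so GAGGAA reads TTCCTC.
CYBB, chrX:37779809-37780108, plus strand: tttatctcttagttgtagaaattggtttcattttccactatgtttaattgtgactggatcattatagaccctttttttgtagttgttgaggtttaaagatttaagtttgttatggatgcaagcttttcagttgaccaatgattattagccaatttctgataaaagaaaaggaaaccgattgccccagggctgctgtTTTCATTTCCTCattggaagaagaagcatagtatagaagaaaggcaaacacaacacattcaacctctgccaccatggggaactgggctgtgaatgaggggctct
NCF1, chr7:74773761-74774060, plus strand: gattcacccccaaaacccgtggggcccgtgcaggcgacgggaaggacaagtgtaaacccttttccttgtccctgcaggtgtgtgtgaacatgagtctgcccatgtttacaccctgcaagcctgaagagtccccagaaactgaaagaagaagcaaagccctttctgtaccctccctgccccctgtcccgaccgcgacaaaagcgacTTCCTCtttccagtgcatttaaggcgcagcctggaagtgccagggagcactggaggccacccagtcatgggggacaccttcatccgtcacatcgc
CYBA, chr16:88651004-88651303, minus strand: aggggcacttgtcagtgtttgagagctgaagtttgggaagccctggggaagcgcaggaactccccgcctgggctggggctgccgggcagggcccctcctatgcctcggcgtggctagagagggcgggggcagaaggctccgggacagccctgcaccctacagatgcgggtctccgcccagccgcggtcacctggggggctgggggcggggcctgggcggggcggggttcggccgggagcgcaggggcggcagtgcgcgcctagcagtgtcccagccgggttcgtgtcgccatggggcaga
In CYBB the composite began 54 bases and GAGGAA 48 bases before the RefSeq start, and the matches overlap, so the capitals form 1 run. NCF1 held GAGGAA 45 bases before its RefSeq start and no composite, and CYBA held neither. By the deposited starts instead, the CYBB run spans the gene start and the NCF1 match lies just inside the gene. Of 35116 promoters of this length, 27.9% held GAGGAA and 2.82% held the composite. A match describes letters only and was not tested as a binding site.

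The 8 libraries held 21053724 to 31135338 counts, and 1 count was worth 0.0314 to 0.0485 CPM. CPM are library-scaled counts (edgeR's CPM after TMM scaling), and every adjusted p, unless another tool or the log2(RPKM + 1) scale (limma) is named, is from edgeR's quasi-likelihood test with Benjamini-Hochberg adjustment over all 18314 genes, called at 0.05. Errors (±) are standard errors for log2 fold changes and SDs over 2 libraries for levels. Mitochondrial genes took 7.93 to 8.30% of counts in the 4 dG libraries and 9.12 to 9.83% in the 4 PBS libraries; the part of this in the dG effects was not tested. The lines matched their labels in part. CD34 averaged 0.265 to 0.561 CPM over the U937 groups and 931 to 1191 CPM over the KG1A groups, and CD4 and ELANE were at 102 CPM or more in U937. The monoblast list of 6 genes summed to 1116 and 1103 CPM in U937 dG, 539 and 551 CPM in U937 PBS, and at most 0.284 CPM in KG1A. MPO, a classical marker of the monoblast list, was near 0 in every group (at most 0.162 CPM), and CSF1R was at 1.44 CPM in U937 dG and 1.63 CPM in U937 PBS. Erythroid markers had no reads in any library, the epithelial and fibroblast list summed to 4.32 and 4.66 CPM in U937 dG and 1.32 and 1.40 CPM in U937 PBS, nearly all from COL1A1, and the lymphoid list summed to at most 6.40 CPM in U937. In KG1A the lymphoid list summed to 121 and 125 CPM in dG and 105 and 107 CPM in PBS, most of it from CD3D (102 CPM in dG and 94.9 CPM in PBS). In bulk RNA, more cells that express a gene and more RNA per cell cannot be told apart.

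In U937, dG raised 4 of the 5 genes and lowered 0 (0 also at an unadjusted p under 0.05 in edgeR and by DESeq2, which called all 5 as higher). Among all genes tested, 64.0% were called in that comparison, 32.4% as higher and 31.5% as lower. CYBB had the largest rise of the 5, followed by the cytosolic adaptors NCF1 and NCF4 and then by RAC2. CYBA did not pass the test. The monoblast list moved with these genes: 4 of its 5 tested members were higher in U937 dG, among them LYZ, lysozyme, at 222 CPM in dG and 23.7 CPM in PBS, a gene named after its values were seen. The part of this in the oxidase genes' rise was not tested.

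A gene on the same strand overlaps CYBB over 33451 bases and had 0 reads in every library. How reads shared by overlapping genes were counted is not given in the sources used here, so the level of CYBB is uncertain. CYBB had 10.9 and 9.61 CPM in U937 dG, from 253 and 198 reads, against 3.17 and 3.11 CPM in U937 PBS, from 101 and 78 reads. Both dG libraries lay far above both PBS libraries. The log2 fold change was 1.71 ± 0.14, a 3.27-fold rise (adjusted p = 1.17e-13), above that of 94.4% of all genes tested. Its membrane partner CYBA had 67.5 and 57.7 CPM in U937 dG, against 57.3 and 58.1 CPM in U937 PBS. One dG library stood above both PBS libraries and the other lay between them. The change of 0.12 ± 0.06 (95% interval -0.004 to 0.246) did not pass the test (adjusted p = 0.0847). It was called without U937 dG replicate 2 (0.29, adjusted p = 0.000678), and without either KG1A dG library (adjusted p = 0.0479 without replicate 1 and 0.0475 without replicate 2). With DESeq2 size factors it was 0.21 (adjusted p = 0.00283).

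NCF4 had 197 and 196 CPM in U937 dG, against 111 and 122 CPM in U937 PBS. The groups did not overlap, and NCF4 rose by 0.76 ± 0.04 (1.69-fold, adjusted p = 1.72e-17). An antisense gene that overlaps NCF4 over 9454 bases had at most 2 reads in any library. NCF1 had 6.04 and 5.68 CPM in U937 dG, against 3.67 and 2.95 CPM in U937 PBS, again without overlap. It rose by 0.81 ± 0.16 (1.75-fold, adjusted p = 2.67e-05).

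NCF1 has a pair of near-identical copies on chromosome 7, NCF1B and NCF1C, and how the authors counted reads that match several genes is not given in the sources used here. Its own level is therefore uncertain. NCF1 took 53.2% and 52.7% of the reads of the 3 copies in U937 dG, against 47.4% and 40.7% in U937 PBS. Summed over the copies, the level was 11.3 and 10.8 CPM in U937 dG, against 7.75 and 7.26 CPM in U937 PBS. The sum rose by 0.56 (adjusted p = 4.38e-05), so the call held for the sum, with a smaller rise. Tested singly, NCF1C rose by 0.69 ± 0.22 (adjusted p = 0.00778), and NCF1B was at 2.63 CPM in dG and 2.57 CPM in PBS (adjusted p = 0.937).

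RAC2 had 205 and 202 CPM in U937 dG, against 162 and 159 CPM in U937 PBS. Every dG library was above every PBS library, and RAC2 rose by 0.34 ± 0.04 (1.26-fold, adjusted p = 1.67e-10). RAC1, the widely expressed Rac that can also serve an oxidase, was at 252 CPM in U937 dG and 251 CPM in U937 PBS (0.01 ± 0.03, adjusted p = 0.89). Per kilobase of exon, the ratio of RAC2 to RAC1 was 0.987 and 0.997 in U937 dG, against 0.789 and 0.789 in U937 PBS. The rarer RAC3 fell by 0.87 ± 0.12 on the log2 scale (adjusted p = 2.48e-08).

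**Figure D1:**
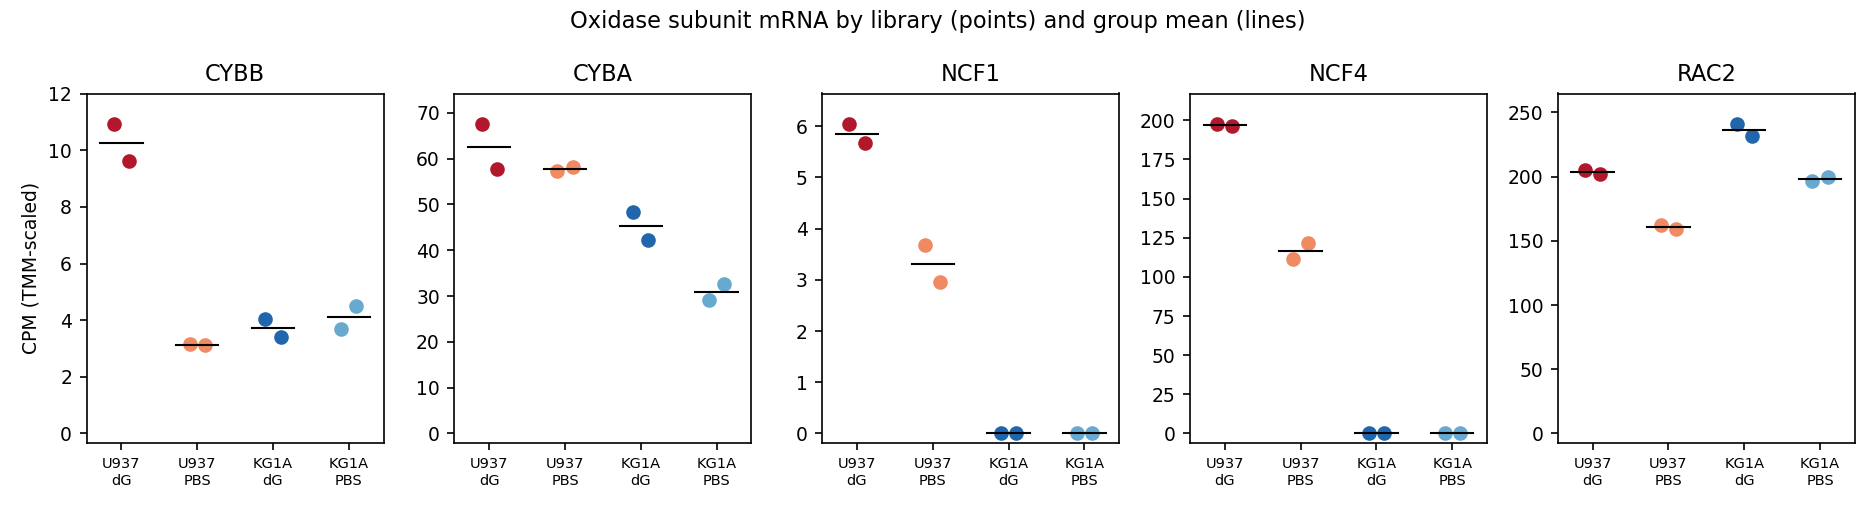
Each panel plots 1 gene, with TMM-scaled CPM on the y axis and the 4 groups on the x axis; points are libraries and black lines are means of 2. CYBB is at 10.9 and 9.61 CPM in U937 dG and at most 4.52 CPM in the other 6 libraries, and NCF1 and NCF4 are at or near 0 in the 4 KG1A libraries.

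In KG1A, dG raised CYBA and RAC2, did not move CYBB past the threshold, and left NCF1 without a read. Of the 5 genes 3 were called as higher and 0 as lower (the same counts at an unadjusted p under 0.05 in edgeR and by DESeq2), where 49.1% of all genes were called, 29.6% as higher and 19.6% as lower. The third call, NCF4, rested on 5 reads.

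CYBA had 48.4 and 42.1 CPM in KG1A dG, against 29.2 and 32.6 CPM in KG1A PBS. The groups did not overlap, and CYBA rose by 0.55 ± 0.07 (1.46-fold, adjusted p = 1.84e-08). RAC2 had 241 and 231.5 CPM in KG1A dG, against 197 and 199 CPM in KG1A PBS, also without overlap. It rose by 0.25 ± 0.04 (1.19-fold, adjusted p = 9.54e-08). RAC1 was at 205 CPM in KG1A dG and 196 CPM in KG1A PBS (adjusted p = 0.139), and the ratio of RAC2 to RAC1 per kilobase was 1.45 and 1.39 in KG1A dG, against 1.21 and 1.27 in KG1A PBS.

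CYBB had 4.05 and 3.39 CPM in KG1A dG, against 3.69 and 4.52 CPM in KG1A PBS. The groups overlapped, and the log2 fold change was -0.15 ± 0.16 (95% interval -0.46 to 0.17, adjusted p = 0.468). The interval does not reach the rise seen in U937.

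NCF1, NCF1B and NCF1C had 0 reads in every KG1A library. A floor of 3 counts per group comes to 0.0567 CPM in KG1A dG and 0.0574 CPM in KG1A PBS. For 0 reads, the exact 95% Poisson interval reaches 0.0697 CPM in KG1A dG and 0.0705 CPM in KG1A PBS. These limits, like all Poisson intervals here, cover counting error only. NCF4 had 4 and 1 reads in KG1A dG and 0 and 0 in KG1A PBS. The dG reads came to 0.0945 CPM (exact 95% Poisson interval 0.0307 to 0.221), an interval that holds the PBS floor, so no fold is given. The difference was called (adjusted p = 0.0289). The call was lost when KG1A dG replicate 1 was left out (adjusted p = 0.234), when either KG1A PBS library was (0.0906 for replicate 1 and 0.133 for replicate 2), and on log2(RPKM + 1) (adjusted p = 0.298). Genes of primary granules that U937 expresses also showed a few reads in KG1A. Expressed as a share of the U937 dG level, KG1A dG held 0.048% for NCF4, 0.108% for CTSG, 0.0195% for PRTN3, 0.0114% for AZU1 and 0% for ELANE, while MPO had 4 reads in each of these groups. The 5 granule genes together summed to 46 and 25 reads in KG1A dG, against 4 and 6 reads in KG1A PBS, of which CTSG held most. The part of trace reads from U937 in the NCF4 call was not tested.

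The dG effects on the flavocytochrome genes differed between the lines, in opposite directions. The test of the difference, the U937 effect minus the KG1A effect, called 44.1% of all genes, 17.6% with a higher and 26.4% with a lower effect in U937. With DESeq2 size factors 50.8% of the calls had the higher effect in U937, against 40.0% with TMM. CYBB responded more in U937, by 1.86 ± 0.21 (adjusted p = 1.88e-09). CYBA responded less in U937, by -0.43 ± 0.09 (adjusted p = 0.000212), though not on log2(RPKM + 1) (adjusted p = 0.132) or without U937 dG replicate 2 (-0.19, adjusted p = 0.126). RAC2 showed no called difference (0.08 ± 0.05, 95% interval -0.02 to 0.19, adjusted p = 0.178), but this rested on the scaling: with DESeq2 size factors the difference was 0.19 (adjusted p = 0.00267). It was also called without U937 dG replicate 1 (adjusted p = 0.00859) or replicate 2 (adjusted p = 0.00251). For NCF1 and NCF4, with no reads in KG1A PBS, a fitted difference depends on the prior count and gives no size; that of NCF4 was not called (adjusted p = 0.0829).

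The balance of the flavocytochrome mRNAs thus moved in opposite ways, as the library values show. Per kilobase of exon, CYBA stood 8.15 and 7.91 times above CYBB in U937 dG, against 23.8 and 24.6 times in U937 PBS. In KG1A the ratio was 15.7 and 16.4 in dG, against 10.4 and 9.51 in PBS. In neither line did the dG and PBS libraries overlap. The size of these ratios carries the uncertainty of the CYBB level, which a gene on the same strand overlaps.

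**Figure D2:**
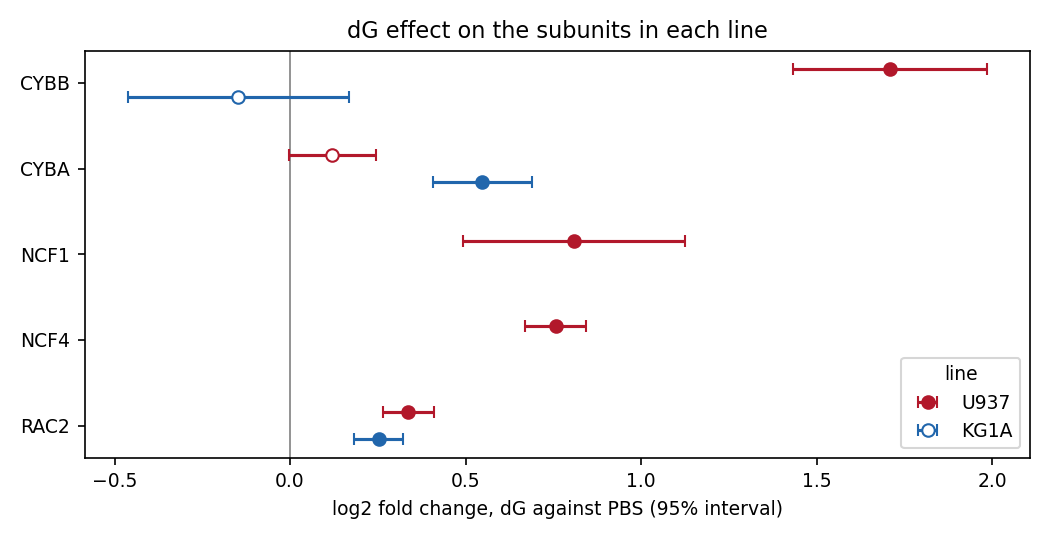
Points give the log2 fold change of dG against PBS on the x axis for each gene and line, bars are 95% intervals, and filled points passed an adjusted p of 0.05. CYBB lies at 1.71 in U937 and -0.15 in KG1A, while CYBA lies at 0.12 in U937 and 0.55 in KG1A; NCF1 and NCF4 are not drawn for KG1A, which had 0 and 5 reads of them.

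In vehicle alone, CYBA was higher and RAC2 and CYBB were lower in U937 than in KG1A, where 82.3% of all genes were called, 41.4% as higher and 40.8% as lower in U937. NCF1 and NCF4 passed the filter only through U937 and so had to differ; their levels are given as a description, with no test. NCF4 was at 117 ± 7.54 CPM in U937 PBS and had no read in KG1A PBS. Its U937 level was 2020-fold above the KG1A floor of 3 counts. NCF1 was at 3.31 ± 0.51 CPM in U937 PBS, 58.5-fold above the same floor, and likewise without a read in KG1A PBS. CYBA was 1.86-fold higher in U937, at 57.7 ± 0.60 CPM against 30.9 ± 2.39 CPM in KG1A (log2 difference 0.89 ± 0.07, adjusted p = 6.78e-15).

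The other 2 genes were lower in U937. RAC2 was at 161 ± 2.14 CPM in U937 PBS and 198 ± 1.80 CPM in KG1A PBS (-0.30 ± 0.04, adjusted p = 1.02e-09). CYBB was at 3.14 ± 0.04 CPM in U937 PBS and 4.10 ± 0.59 CPM in KG1A PBS (-0.40 ± 0.16, adjusted p = 0.0214). That call was lost without KG1A PBS replicate 2 (-0.23, adjusted p = 0.303), without U937 PBS replicate 1 (adjusted p = 0.0622) or replicate 2 (adjusted p = 0.0833), with the replicate block (-0.32, adjusted p = 0.126) and with DESeq2 (adjusted p = 0.0891). In dG the order of the lines was the other way for CYBB, at 10.3 ± 0.92 CPM in U937 and 3.72 ± 0.47 CPM in KG1A.

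Levels can be set between genes only per length. Per kilobase of all annotated exons, the order in U937 dG was NCF4 (112 ± 0.52 CPM per kilobase), RAC2 (80.3 ± 0.90), CYBA (18.6 ± 2.06), CYBB (2.32 ± 0.21) and NCF1 (1.69 ± 0.07). In U937 PBS, NCF4 (66.3 ± 4.29) and RAC2 (63.5 ± 0.85) were within their spread of each other, followed by CYBA (17.2 ± 0.18), NCF1 (0.956 ± 0.15) and CYBB (0.71 ± 0.01). In KG1A dG, RAC2 (93.25 ± 2.56) led CYBA (13.5 ± 1.31), CYBB (0.842 ± 0.11) and NCF4 (0.0519 ± 0.04), and in KG1A PBS, RAC2 (78.25 ± 0.71) led CYBA (9.21 ± 0.71) and CYBB (0.927 ± 0.13). CYBB was thus the lowest of the genes with over 5 reads in 3 of the 4 groups, below its partner CYBA in every library. How reads shared with the gene that overlaps CYBB were counted is not given, so its level and this rank are uncertain.

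The length used changes part of this order. The deposited exon length of CYBA is 3357 bases, while its principal transcript in GENCODE 29 is 797 bases long; the lengths are 3462 and 1396 bases for NCF1, 2532 and 1482 for RAC2, 1759 and 1396 for NCF4, and 4423 and 4324 for CYBB. Per kilobase of the principal transcript, an alternative added after the data were seen, U937 dG had NCF4 at 141 ± 0.66, RAC2 at 137 ± 1.53, CYBA at 78.5 ± 8.69, NCF1 at 4.20 ± 0.18 and CYBB at 2.37 ± 0.21. In U937 PBS the order was RAC2 (108.5 ± 1.44), NCF4 (83.5 ± 5.40), CYBA (72.4 ± 0.76), NCF1 (2.37 ± 0.36) and CYBB (0.726 ± 0.01). On this scale CYBB was the lowest of the 5 in both U937 groups, with the same limit on its level, and CYBA came close to NCF4 in PBS.

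**Figure D3:**
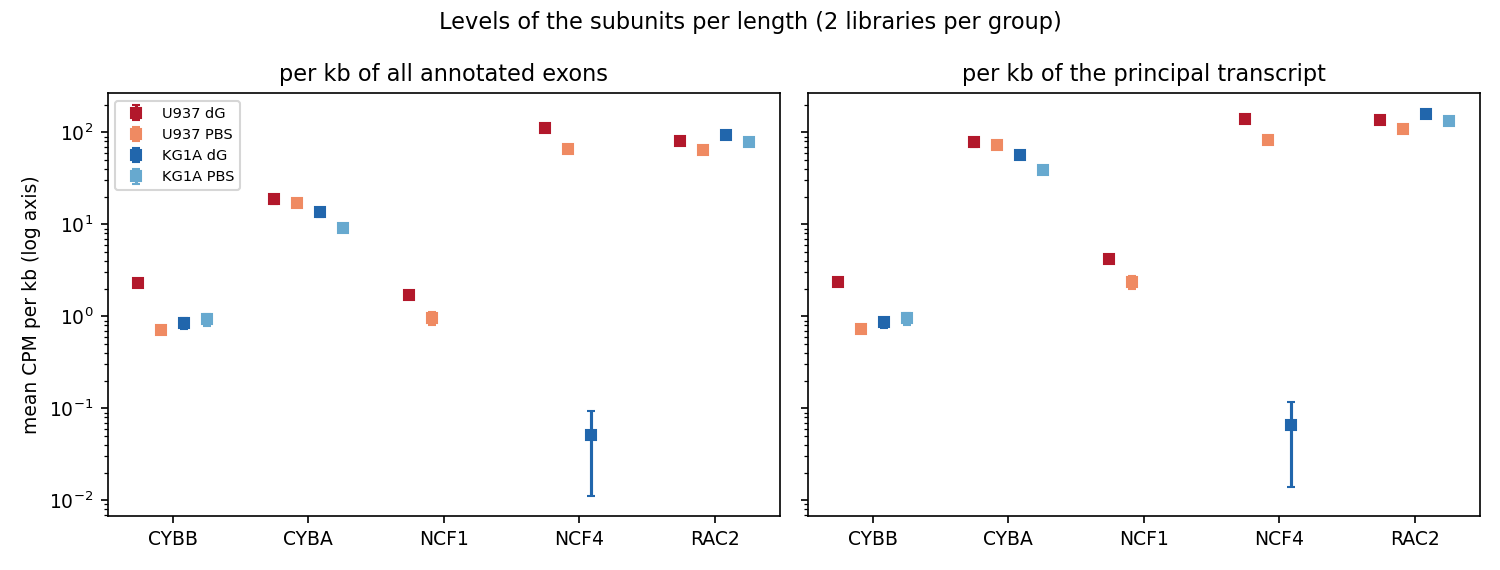
The y axis (log scale) gives mean CPM per kilobase for each gene and group, by the length of all annotated exons on the left and of the principal transcript on the right, with SD over 2 libraries as bars; groups without a read are not drawn. CYBA in U937 dG moves from 18.6 to 78.5 between the length measures, while CYBB, at 2.32 and 2.37, hardly moves.

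The genes with the pattern most like each member were sought among 9878 protein-coding genes, by the root mean square difference over 3 log2 fold changes from 4 groups. For CYBB they were TMEM55B (0.18), JRK (0.20) and YOD1 (0.23), and no other gene came within 0.25. For CYBA they were GSTK1 (0.04), APAF1 (0.06) and ATP11A (0.06), among 228 genes within 0.25. For RAC2 they were ACYP1, MPHOSPH8 and SMAD2 (0.02 to 0.03), among 761. For NCF1 they were TMEM51 (0.06), C17orf51 (0.09) and MAPRE3 (0.11), and for NCF4 they were LMNA (0.09), RNASE2 (0.47) and MEIS1 (0.55), in both cases through fitted differences that depend on the prior count.

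Genes around the oxidase were grouped by role. Those that assemble or activate it went both ways in U937: 11 rose and 6 fell of 21 tested, out of 22 listed, with a median of 0.11 beside 0 for all genes. Over all genes 32.4% rose and 31.5% fell in U937, and 29.6% rose and 19.6% fell in KG1A, and the counts of each list below stand beside these shares. PREX1, an exchange factor for Rac, rose by 1.05 ± 0.04, to 398 CPM in dG against 192 CPM in PBS. HVCN1, the proton channel that balances the charge of the burst, rose by 0.90 ± 0.07, and ARHGDIA, a GDP dissociation inhibitor that holds Rac proteins, fell by 0.71 ± 0.04 on the log2 scale. In KG1A 12 rose and 1 fell, with a median of 0.32 beside 0.04 for all genes. PREX1 rose there by 1.96 ± 0.12, to 10.5 CPM in dG against 2.74 CPM in PBS. PRKCB, a protein kinase C that phosphorylates p47phox, rose by 1.19 ± 0.06, PIK3CG, a phosphoinositide 3-kinase, by 0.78 ± 0.06 and the exchange factor VAV3 by 0.56 ± 0.04. The 1 gene that fell, ARHGDIA (-0.36 ± 0.04), is named here for its count.

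Receptors and adaptors linked to the burst, which need not all trigger it, rose in U937 in 13 of 16 tested. The list held 18 genes, and the median was 1.34 beside 0. C5AR1, the receptor for complement C5a, rose by 4.34 ± 0.19, to 11.5 CPM in dG against 0.561 CPM in PBS. The formyl peptide receptor FPR1 was at 2.67 CPM in dG and 0.158 CPM in PBS. It is counted among the 13, but it passed the filter only through U937 dG and so had to be higher there. The adaptor TYROBP rose by 3.07 ± 0.18 and PTAFR, the receptor for platelet-activating factor, by 2.64 ± 0.10. The 1 gene that fell was SYK, a kinase downstream of Fc receptors (-0.96 ± 0.03), named for its count. In KG1A 7 rose and 0 fell, with a median of 0.49 beside 0.04 (at an unadjusted p under 0.05 in edgeR also 7 and 0, by DESeq2 6 and 0). ITGAM, a subunit of the complement receptor, rose by 2.96 ± 0.13, the Fc receptor FCGR2A by 3.51 ± 0.42 (1.35 CPM in dG and 0.112 CPM in PBS), C5AR1 by 1.79 ± 0.26 and FCER1G, the shared Fc receptor chain, by 1.60 ± 0.30. FCER1G was at 1.395 CPM in KG1A dG and 0.4516 CPM in KG1A PBS. FCGR3A and CSF2RA were listed at 0 in all 8 libraries. How reads that match several genes were counted is not given, so these counts do not show that the transcripts were absent.

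Factors known from oxidase promoters rose in 10 and fell in 3 of 14 tested in U937, out of 15 listed (median 0.28 beside 0). CEBPB rose by 1.91 ± 0.05, to 232 CPM in dG against 61.7 CPM in PBS, IRF2 by 1.12 ± 0.05 and IRF1 by 0.95 ± 0.08. The 3 that fell, named for their count, were CEBPE (-0.38 ± 0.11), SPI1, which encodes PU.1 (-0.19 ± 0.06), and NFKB1 (-0.11 ± 0.05). DESeq2 called 10 as higher and 0 as lower. IRF8, at 303 CPM in U937 dG and 278 CPM in U937 PBS, and SPI1, at 52.9 CPM in dG and 60.4 CPM in PBS, were abundant in U937. In KG1A 6 rose and 0 fell (9 and 1 at an unadjusted p under 0.05 in edgeR, 6 and 0 by DESeq2; median 0.14 beside 0.04), among them IRF2 (0.48 ± 0.05), IRF1 (0.35 ± 0.06) and CEBPA (0.22 ± 0.07), whose call was lost when KG1A dG replicate 1 (adjusted p = 0.427), KG1A PBS replicate 1 (0.134) or either U937 dG library (0.115 for replicate 1 and 0.114 for replicate 2) was left out. It was also lost with library sizes alone (0.0894), no filter (0.161), KG1A fitted alone (0.139) and limma on log2 RPKM (adjusted p of 0.158 to 0.307 over its 3 settings). SPI1 was at 0.524 CPM in KG1A dG and 0.276 CPM in KG1A PBS (adjusted p = 0.0708), and IRF8 at 0.0961 CPM in dG and 0.0342 CPM in PBS (adjusted p = 0.363). CYBB was read in KG1A at 3.39 to 4.52 CPM per library. Any link between its level and those of SPI1 and IRF8 was not tested.

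Enzymes that remove superoxide and peroxide rose in 12 and fell in 5 of 17 tested in U937, out of 18 listed (median 0.23 beside 0), where 32.4% of all genes rose and 31.5% fell. SOD2, the mitochondrial superoxide dismutase, rose by 1.57 ± 0.03, to 544 CPM in dG against 183 CPM in PBS. HMOX1, a haem oxygenase, rose by 1.03 ± 0.14, and the glutathione peroxidases GPX4 and GPX1 by 0.68 ± 0.04 and 0.66 ± 0.04. The 5 that fell, named for their count, were SOD1, TXN, GCLM, PRDX6 and PRDX2, between -0.43 and -0.19. In KG1A 8 rose and 7 fell (median -0.01 beside 0.04), where 29.6% of all genes rose and 19.6% fell, with HMOX1 at 1.80 ± 0.50, CAT at 0.48 ± 0.04, TXN at -0.62 ± 0.04 and GPX1 at -0.43 ± 0.06. HMOX1 was low in KG1A, at 0.662 CPM in dG and 0.1985 CPM in PBS. Its call was lost without KG1A dG replicate 1 (0.91) or KG1A PBS replicate 2 (1.37). It was also lost on log2(RPKM + 1) (limma, adjusted p = 0.0883).

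The oxidase draws on NADPH. Of the genes that supply it, 5 rose and 4 fell of 10 tested in U937 (median 0.06 beside 0), where 32.4% of all genes rose and 31.5% fell: IDH1 (0.90 ± 0.03) and NADK (0.68 ± 0.04) were among those that rose, and RPIA (-1.32 ± 0.06), PGLS (-0.54 ± 0.07), TALDO1 and RPE fell. In KG1A 2 rose and 5 fell (median -0.12 beside 0.04), where 29.6% of all genes rose and 19.6% fell: ME1 (2.06 ± 0.33) and IDH1 (0.72 ± 0.04) rose, and RPIA (-0.62 ± 0.05), TALDO1 (-0.24 ± 0.04), TKT, PGLS and NADK fell. ME1 was at 1.60 CPM in KG1A dG and 0.388 CPM in KG1A PBS. It passed the filter only with its reads in KG1A dG, the group where it is high, so its call is no independent support for a rise. Genes given without a value fell outside the rule for named genes and are listed for their count. Of 10 genes of other NADPH oxidases, 2 passed the filter. NOX5, a calcium-regulated oxidase, was at 1.03 CPM in U937 dG and 0.296 CPM in U937 PBS. It passed the filter only through U937 dG and so had to be higher there. Its levels are given as a description, with no test. NOXA1, an activator of NOX1, was at 5.37 CPM in U937 dG and 2.02 CPM in U937 PBS (1.41 ± 0.17, adjusted p = 3.66e-09). In KG1A NOX5 had no reads, and NOXA1 did not pass the test (0.420 CPM in dG and 0.233 CPM in PBS, adjusted p = 0.163).

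Among relatives of RAC2, edgeR called 0 of 4 as higher in either line, also at an unadjusted p under 0.05, while DESeq2 called 1 as higher in U937 and 0 in KG1A. Their median was -0.17 in U937 beside 0 for all genes, of which 32.4% rose and 31.5% fell, and -0.04 in KG1A beside 0.04, with 29.6% and 19.6%. In U937 RAC3, RHOG (-0.20 ± 0.05) and CDC42 (-0.13 ± 0.04) fell, although the RHOG and CDC42 calls were lost with DESeq2 size factors (adjusted p = 0.0593 for RHOG and 0.4 for CDC42) and without U937 dG replicate 2 (adjusted p = 0.172 for RHOG and 0.513 for CDC42). The CDC42 call was also lost without U937 dG replicate 1 (adjusted p = 0.0996). In KG1A RHOG fell (-0.19 ± 0.06), a call lost when KG1A PBS replicate 2 was left out (adjusted p = 0.321). Whether the change in RAC2 differed from theirs was not tested.

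**Figure D4:**
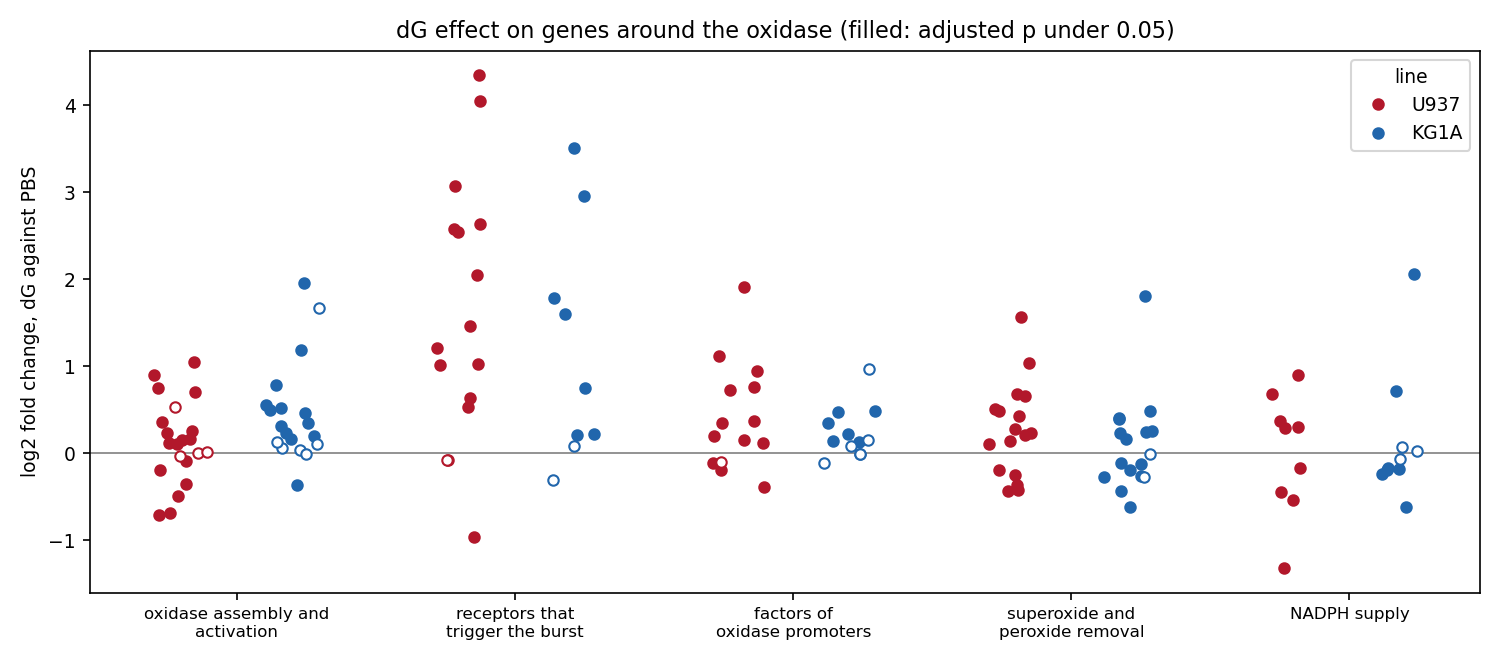
Each point is a gene, with the log2 fold change of dG against PBS on the y axis and the 5 lists on the x axis; filled points passed an adjusted p of 0.05, and genes with a mean under 0.1 CPM in both groups of a line are left out. The receptors reach 4.34 in U937 (C5AR1) and 3.51 in KG1A (FCGR2A), whereas no gene of the NADPH list exceeds 0.90 in U937.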

How the data were processed

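Whole-number read counts per gene and RPKM values for 57992 genes were deposited by the authors. The submitters' processing notes name bcl2fastq 2.18.0.12, TopHat2, HTSeq 0.11.2 and the build hg38 (GRCh38), without roles. Annotation release, strand setting and treatment of multiply matching reads or of reads in overlapping genes are not given in the sources used here. RPKM as deposited by the authors served alternatives only.

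Counts were tested with edgeR 4.0.16 under R 4.3.3 (quasi-likelihood F test, two-sided, filterByExpr, TMM), all 8 libraries in 1 model with a mean per line and treatment and 4 residual degrees of freedom. The common biological coefficient of variation was 2.51%. A ± after a fold change is the absolute log2 fold change over the square root of F. Benjamini-Hochberg adjustment covered all 18314 genes tested. The fit was tested on counts simulated with the common spread for every gene, for dG against PBS in KG1A only. It recovered 83% of log2 changes of 0.5 and 96% of those of 1, set in the more abundant genes. Low-count genes, the other comparisons and a spread that differs by gene were not covered. Alternatives used limma 3.58.1 on log2 RPKM with pseudocounts of 1 and 0.1, DESeq2 1.42.0, other scalings, no filter, single lines, a replicate block and leaving out each library.

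The members, the gene lists and the motifs were chosen with earlier results of these data known. The rule for named genes took, per list and line, up to 4 called genes with the largest absolute change, or, where none was called, 2 by mean CPM, and per member the 3 protein-coding genes most like it whose mean log2 CPM in U937 reached 2. Some genes of the lists are counted but not reported here by name. CYBC1 stands in the table under an older symbol, matched by identifier; all other list symbols matched directly. Principal transcripts are the APPRIS principal ones of GENCODE 29.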

Additional observations from a re-analysis of the deposited data

Results flagged for a closer look

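The dG effect on the flavocytochrome genes differed between the lines by the test of the difference (edgeR). For CYBB the U937 effect exceeded the KG1A effect by 1.86 ± 0.21 on the log2 scale (adjusted p = 1.88e-09), with both U937 dG libraries above both U937 PBS libraries and overlapping groups in KG1A. For CYBA the difference was -0.43 ± 0.09 (adjusted p = 0.000212), with both KG1A dG libraries above both KG1A PBS libraries and overlapping groups in U937. Groups of 2 libraries are too small for a search for outlying libraries.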

How the results depend on the processing

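CYBB, NCF1, NCF4 and RAC2 in U937, CYBA and RAC2 in KG1A and the CYBB difference between lines kept their direction and call under every alternative run. CYBA in U937 was called with DESeq2 (0.209), its size factors in edgeR (0.211), no filter (0.181) and a crossed block (0.122). The RAC2 difference was called with DESeq2 (0.185), its size factors (0.185), no filter (0.212), log2(RPKM + 1) (0.209, also unfiltered) and log2(RPKM + 0.1) (0.212). The CYBA difference was lost on log2(RPKM + 1) (-0.277, also unfiltered) and log2(RPKM + 0.1) (-0.305). CYBB between lines in PBS was lost with DESeq2 (-0.393), log2(RPKM + 1) (-0.191, also unfiltered), the replicate block (-0.324) and the crossed block (-0.181). On log2(RPKM + 1), NCF4 in KG1A was lost (0.07) and its difference reversed to 0.736, against -3.60 in the counts, with and without the filter; the pseudocount sets these sizes where a group has no reads. Causes of the other changes were not tested.

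Leaving out 1 library gave 3.20 to 4.93 for NCF4 in KG1A, 0.059 to 0.29 for CYBA in U937, -0.52 to -0.19 for the CYBA difference, -4.18 to -2.45 for the NCF4 difference (called without KG1A dG replicate 2, adjusted p = 0.038 in edgeR), 0.053 to 0.226 for the RAC2 difference and -0.53 to -0.23 for CYBB between lines in PBS. Called genes then numbered 7474 to 9028 in KG1A, 10492 to 11934 in U937, 7139 to 7763 for the difference and 14398 to 15457 between lines. Same-numbered libraries did not deviate together (r = -0.20 in KG1A and -0.01 in U937), and with 2 pairs a line the data do not settle whether numbers are shared or crossed, so the numbers were not used as pairs. With the replicate block 8742, 11530, 7835 and 14157 genes were called in that order, and with KG1A numbers crossed, a pairing added after the data were seen, 9181, 11833, 8247 and 14430. With 2 libraries a group and 0 to 5 reads of NCF1 and NCF4 in KG1A, no size of a dG effect on these genes could be given there. Among the named genes of the lists, 394 of 411 values in KG1A and 436 of 450 in U937 kept direction and side of the threshold over the alternatives; calls lost numbered 16 in KG1A and 14 in U937, calls gained 1 and 0, and 0 reversed; the changes lay in 4 genes in KG1A and 2 in U937.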
